A study of Mus musculus with 2 samples.

Results

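The ERK feedback genes described here are the MAP kinase phosphatase genes Dusp1, Dusp2, Dusp4, Dusp5 and Dusp6, the Sprouty genes Spry1, Spry2 and Spry4, and the Sprouty-related genes Spred1 and Spred2. They were chosen by name with earlier results of these data known, 10 of the 34745 gene models in the deposited files. Each name matched 1 model in both files. All 10 had a mean of at least 1 CPM (read counts scaled to the size of the library), the filter used below. The study measured RNA by sequencing in haematopoietic stem and progenitor cells transduced with a form of PML/RARa, a fusion that joins PML, a protein of nuclear bodies, to retinoic acid receptor alpha in acute promyelocytic leukaemia. The labels give 1 library of cells with the form called 2KR and 1 library of cells with the wild-type fusion (WT), and the series title says that 2 lysines of the fusion were studied. Both came from marrow of C57BL/6 mice treated with 5-fluorouracil, enriched for progenitors, transduced with lentivirus in the presence of polybrene, and sorted for transduced cells. Both were grown with SCF, IL-3, IL-6, hydrocortisone, serum albumin and fetal bovine serum. The sources used here give neither the age of the mice nor how many stood behind each library, and the empty vector arm was not analysed here.

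ERK is the last kinase of the cascade that runs from growth factor receptors through RAS, RAF and MEK. Many of its inhibitors are themselves induced by ERK signalling, so their transcripts form a negative feedback loop. The DUSP members are phosphatases that remove phosphate from MAP kinases. Sprouty proteins restrain signalling between receptor and RAF, and Spred proteins bring the RAS inactivator neurofibromin to the membrane. In progenitors this cascade lies downstream of KIT, the receptor for SCF, and of the IL-3 receptor.

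The 2KR library held 20462011 counts and the WT library 17606168. Both libraries carried progenitor transcripts. The 8 progenitor markers, Kit, Cd34, Gata2 and Myb among them, summed to 3616 CPM in 2KR and 3524 CPM in WT. Single markers moved in both directions, 4 with the interval wholly below 1 and 4 wholly above. Meis1 was 2.67-fold (2.45 to 2.92), Gata2 1.53-fold (1.48 to 1.57), Ly6a 1.51-fold (1.42 to 1.61) and Kit 1.17-fold lower in 2KR (1.15 to 1.19), and Cd34 was 1.86-fold (1.81 to 1.92), Flt3 1.81-fold (1.58 to 2.08), Myb 1.39-fold (1.35 to 1.42) and Cd48 1.19-fold higher (1.14 to 1.24). The 6 B cell markers summed to 0.874 CPM in 2KR and 0.286 CPM in WT, with Ebf1 and Pax5 at 0 in both libraries, and the 6 T and NK cell markers summed to 4.32 and 6.98 CPM, with Cd3e and Ncr1 at 0 in both. With 1 library per form there is no replicate error to set a difference against, and no p-value was computed. The 95% intervals given with each fold cover counting error only, and variation between cultures was not measured. In bulk RNA a lower level in every cell and fewer cells with a high level cannot be told apart.

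All 10 members had a lower CPM in 2KR cells than in WT cells, against 47.7% of the 12466 models that passed the filter. For 9 of the 10, all but Spry4, the whole counting interval of the ratio was under 1, against 28.5% of tested models. Whether an interval clears 1 depends on depth. The members had 168 to 2777 counts in a library and tested models start at a mean of 1 CPM, so these shares are not like for like. Only Spry1 was at least 2-fold lower, the size rule used here (a log2 ratio of CPM + 1 of at least 1 in size), against 4.56% of tested models, and 0 members were at least 2-fold higher, against 2.66%. The median log2 ratio of CPM + 1, 2KR over WT, was -0.41 over the 10 members and 0.02 over all tested models, whose quartiles were -0.21 and 0.23. Together the members held 441 CPM in 2KR and 610 CPM in WT, 1.38-fold lower in 2KR (1.35 to 1.42). The shortfall was small for most genes and spread over all 4 kinds of inhibitor. By kind, the summed level in 2KR was 1.86-fold lower (1.69 to 2.05) for the 3 Sprouty genes, 1.67-fold lower (1.56 to 1.79) for Dusp6 alone, 1.33-fold lower (1.28 to 1.39) for the 4 nuclear phosphatase genes and 1.21-fold lower (1.15 to 1.27) for the 2 Spred genes.

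**Figure D1:**
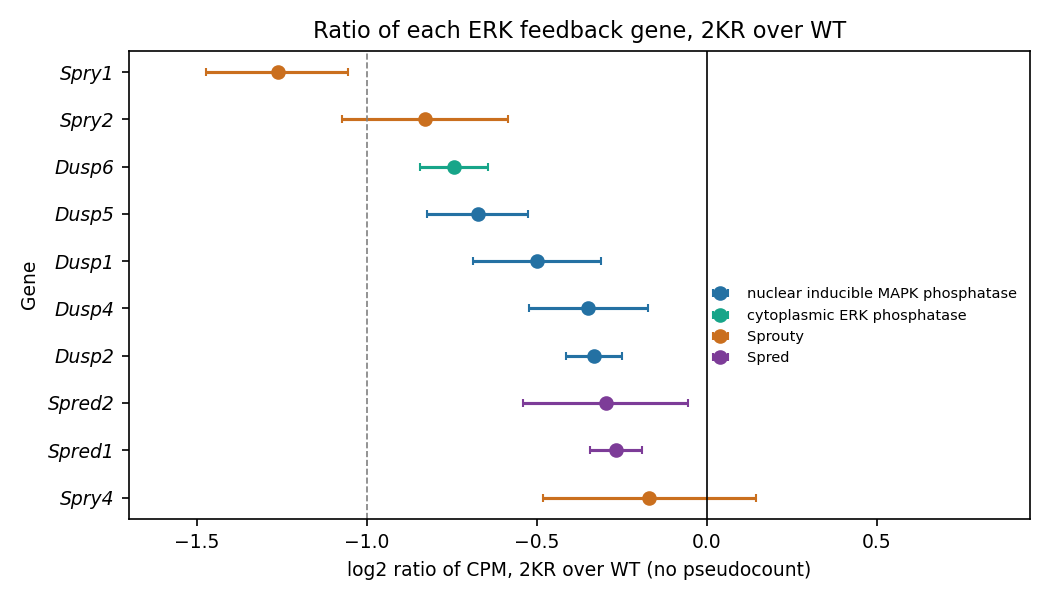
The log2 ratio of CPM, 2KR over WT and without a pseudocount, is plotted for each of the 10 genes, with bars for the 95% counting interval, 1 library per form and colours for the kind of inhibitor. All points lie left of 0, the point of Spry1 alone lies left of the dashed line that marks 2-fold lower, and the bar of Spry4 crosses 0.

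The inducible nuclear phosphatases come first. Dusp5 (ENSMUSG00000034765, chromosome 19, 53529109 to 53542431, plus strand, GRCm38) encodes a nuclear phosphatase that acts on ERK and also anchors it in the nucleus. It had 653 counts or 31.7 CPM in 2KR and 884 counts or 50.6 CPM in WT, 1.60-fold lower in 2KR (1.44 to 1.77). Of the 4 nuclear phosphatase genes it was the one with the lowest ratio. Its promoter is shown because it is the only one of the 8 member promoters in the RefSeq table with a CArG box, the site of serum response factor, a factor through which ERK signalling reaches early response genes. Dusp1 (ENSMUSG00000024190, chromosome 17, 26505590 to 26508519, minus strand) encodes MKP-1, a phosphatase of p38, JNK and ERK whose gene is also induced by stress and by glucocorticoids. It had 428 counts or 20.8 CPM in 2KR and 513 counts or 29.3 CPM in WT, 1.41-fold lower (1.24 to 1.61). Its promoter is shown as the only one of the 8 with a full cyclic AMP response element, the site of CREB family factors. In the lines below, from RefSeq on GRCm38.p6, each sequence is the 250 bases before the annotated start, 5′ to 3′ on the strand of the gene. Capitals mark CArG boxes and the core of the cyclic AMP response element, TGACGT, on either strand, and neighbouring or overlapping matches run together.
Dusp5 promoter, chr19:53528895-53529144, plus strand: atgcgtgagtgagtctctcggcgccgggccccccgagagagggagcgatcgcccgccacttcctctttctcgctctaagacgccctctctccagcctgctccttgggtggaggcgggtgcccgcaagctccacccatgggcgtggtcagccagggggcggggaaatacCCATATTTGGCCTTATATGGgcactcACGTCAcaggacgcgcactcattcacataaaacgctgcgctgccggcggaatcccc
Dusp1 promoter, chr17:26508473-26508722, minus strand: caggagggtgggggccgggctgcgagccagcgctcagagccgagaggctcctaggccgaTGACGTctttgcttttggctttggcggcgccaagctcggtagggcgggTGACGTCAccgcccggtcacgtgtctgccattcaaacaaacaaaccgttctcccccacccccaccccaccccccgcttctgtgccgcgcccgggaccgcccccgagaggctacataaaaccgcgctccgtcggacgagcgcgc

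In the Dusp5 promoter, 2 CArG boxes stood side by side at -82 to -73 and -72 to -63 from the start, followed by a core of the cyclic AMP response element on the opposite strand at -56 to -51. A CArG box was found in 1.63% of the 32851 promoter windows of 300 bases (250 before and 50 after the start) in the table. In the Dusp1 promoter the core stood at -191 to -186 and within the full element, TGACGTCA, at -143 to -136. The full element was found in 1.79% of all windows and the core, which the full element contains, in 7.51%. The core was also present in the Spred2 promoter, so 3 of the 8 member promoters held it. These are matches of letters on either strand and do not show that a factor was bound.

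The remaining nuclear phosphatase genes differed less by point value. Dusp2 (ENSMUSG00000027368, chromosome 2, 127336159 to 127338376, plus strand), which encodes PAC-1, a phosphatase first known from activated blood cells, had 2374 counts or 115 CPM in 2KR and 2535 counts or 145 CPM in WT. That was 1.26-fold lower in 2KR (1.19 to 1.33). Dusp4 (ENSMUSG00000031530, chromosome 8, 34807297 to 34819894, plus strand), which encodes MKP-2, had 521 counts or 25.3 CPM in 2KR and 563 counts or 32.2 CPM in WT, 1.27-fold lower (1.13 to 1.44). The ratios of these genes lay within each other's intervals. Neither was separable from Dusp1. Reads of Dusp1 per Dusp2 read gave a ratio, 2KR over WT, of 0.891 (0.772 to 1.03), and per Dusp4 read 0.902 (0.754 to 1.08). The promoter of Dusp2 held 1 match to the EGR site GCGGGGGCG, at -98 to -90, a string found in 2.91% of all windows.

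Dusp6 (ENSMUSG00000019960, chromosome 10, 99263231 to 99267488, plus strand) encodes MKP-3, a cytoplasmic phosphatase specific for ERK and widely used as a transcript readout of ERK activity. It had 1409 counts or 68.4 CPM in 2KR and 2002 counts or 115 CPM in WT, 1.67-fold lower in 2KR (1.56 to 1.79). In CPM the gap of 46.1 CPM was wider than that of any other member, and it made Dusp6 15.5% of the members' summed counts in 2KR and 18.8% in WT. None of the 7 motifs searched was found in the Dusp6 promoter window.

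The Sprouty genes spanned the whole range of the family. Spry1 (ENSMUSG00000037211, chromosome 3, 37639947 to 37644598, plus strand), an inhibitor of receptor tyrosine kinase signalling, had 283 counts or 13.7 CPM in 2KR and 576 counts or 32.9 CPM in WT, and was 2.40-fold lower in 2KR (2.08 to 2.78). It ranked 425 from the lowest log2 ratio among the 12466 tested models. A model that overlaps it, Gm42922, had 2 counts in 2KR and 8 in WT. Its promoter, shown because this member passed the size rule, held none of the 7 motifs searched (again 250 bases before the RefSeq start, with no capitals as there is no match to mark).
Spry1 promoter, chr3:37639697-37639946, plus strand: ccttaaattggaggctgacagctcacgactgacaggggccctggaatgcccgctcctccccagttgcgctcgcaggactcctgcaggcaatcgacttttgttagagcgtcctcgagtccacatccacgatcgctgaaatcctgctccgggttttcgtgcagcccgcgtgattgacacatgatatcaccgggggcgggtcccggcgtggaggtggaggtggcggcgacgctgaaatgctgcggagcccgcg

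Spry2 (ENSMUSG00000022114, chromosome 14, 105891949 to 105896819, minus strand), which binds the ubiquitin ligase CBL as well as restraining RAS signalling, had 235 counts or 11.4 CPM in 2KR and 354 counts or 20.2 CPM in WT. This made it 1.78-fold lower in 2KR (1.501 to 2.10), the second lowest ratio of the 10. Its promoter window held 1 retinoic acid receptor half-site, AGGTCA, at 22 to 27 after the start, and 16.3% of all windows held this string. Spry4 (ENSMUSG00000024427, chromosome 18, 38586268 to 38601268, minus strand), a member of the same family, had 176 counts or 8.54 CPM in 2KR and 168 counts or 9.61 CPM in WT. Its ratio was 1.12-fold lower in 2KR with an interval from 0.905 to 1.40, so a difference was not detectable at this depth. Set against each other within a library, Spry1 had 1.61 reads per Spry4 read in 2KR and 3.43 in WT, and the ratio of these ratios was 0.469 (0.361 to 0.610).

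After Spry4, the Spred genes had the ratios closest to 1 among the members. Spred1 (ENSMUSG00000027351, chromosome 2, 117121374 to 117182279, plus strand), which recruits neurofibromin and restrains KIT signalling in blood cells, had 2720 counts or 132 CPM in 2KR and 2777 counts or 159 CPM in WT, 1.20-fold lower in 2KR (1.14 to 1.27). Spred2 (ENSMUSG00000045671, chromosome 11, 19924375 to 20024026, plus strand), a relative with the same domains, had 278 counts or 13.5 CPM in 2KR and 290 counts or 16.6 CPM in WT, 1.23-fold lower (1.04 to 1.45). Both ratios were close to each other although Spred1 was read about as often as Dusp2 and Spred2 far less. For Spred2 the lower bound lay just above equality. Nf1, the gene of neurofibromin, had 1937 counts in 2KR and 1735 in WT, and there were 1.40 Spred1 reads per Nf1 read in 2KR and 1.60 in WT, a ratio of 0.877 (0.806 to 0.955). For Spred2 there were 0.144 reads per Nf1 read in 2KR and 0.167 in WT, a ratio of 0.859 whose interval of 0.717 to 1.03 includes 1.

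The members did not all shift by the same factor. Of the 45 pairs of members, 27 had a within-library ratio that differed between 2KR and WT beyond its 95% counting interval, each interval taken alone. Spry1 differed in this way from all 9 other members, its closest neighbour being Spry2, with 1.20 Spry1 reads per Spry2 read in 2KR and 1.63 in WT, a ratio of 0.740 (0.592 to 0.926). Spry2 and Dusp6 each differed from 7 others, and Spry2 against Dusp6 gave a ratio of 0.943 (0.785 to 1.13), which includes 1. Dusp1, Dusp2, Dusp4, Spry4 and Spred2 each differed from 4 others. Below Spry1 the order had no clear break: Dusp5 against Dusp1 gave a ratio of 0.885 with an interval of 0.749 to 1.05 that includes 1, and Dusp1 against Spred1 gave 0.852 (0.739 to 0.981). These pair ratios do not depend on how the libraries were scaled, since the scaling cancels.

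Levels can be compared between genes only per transcript length. The deposited FPKM uses a fixed length for each gene, and for Dusp1 that length was 5142 bases although the deposited locus spans 2930. Levels are therefore given as CPM per kb of the longest protein-coding transcript in GENCODE M21, a scale chosen after the data were seen. On this scale Dusp2 was the most abundant member, with 71.3 in 2KR and 89.7 in WT, and Dusp6 followed with 24.5 and 41.0. Spred1 had 21.9 in 2KR and 26.4 in WT, Dusp5 had 12.8 and 20.4, and Dusp1 had 10.4 and 14.7. The first 5 places were thus the same in both libraries, and no neighbours among them had overlapping counting intervals. Dusp4 had 9.23 in 2KR and 11.8 in WT, Spry2 had 5.46 and 9.70, and Spry1 had 4.95 and 11.9. Spry1 was level with Dusp4 in WT and with Spry2 in 2KR, where its interval overlapped that of Spry2, so it was in place 8 in 2KR and place 6 in WT. Dusp1 and Dusp4 also overlapped in 2KR. Spred2, with 3.03 in 2KR and 3.73 in WT, and Spry4, with 1.80 and 2.02, were lowest in both. On deposited FPKM the order was the same at the top, and Dusp1 moved to place 8 in both libraries, with 4.07 FPKM in 2KR and 5.67 FPKM in WT.

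**Figure D2:**
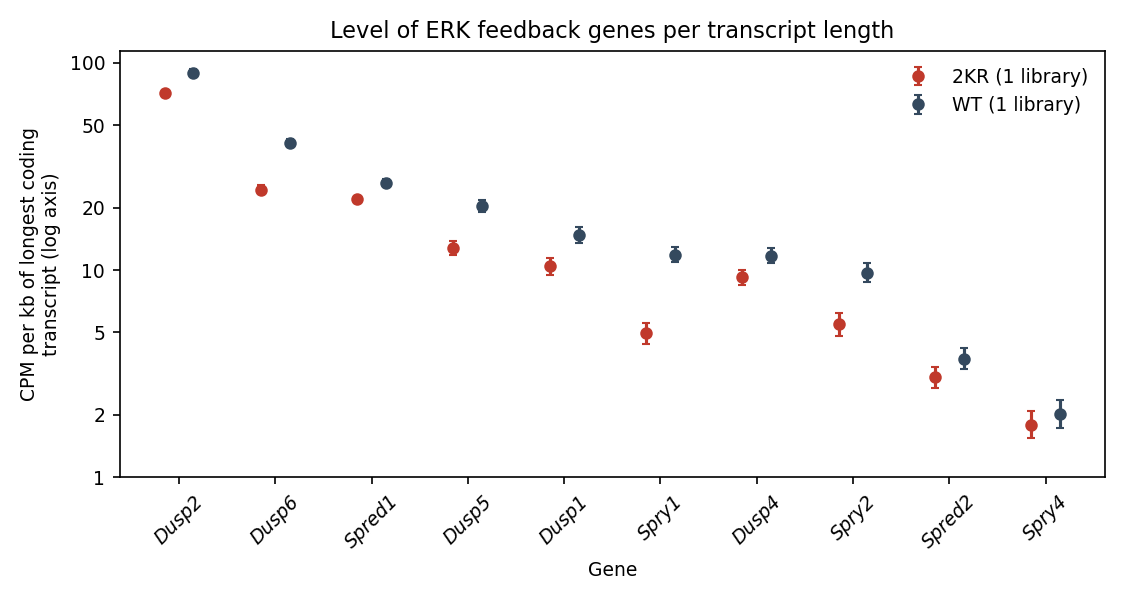
CPM per kb of the longest coding transcript is plotted on a log axis for each gene in the 2KR library (left, red) and the WT library (right, dark), with bars for the exact 95% Poisson interval of the count. Each red point lies below its dark partner, Dusp2 is highest at 71.3 in 2KR and 89.7 in WT, and the widest gap is at Spry1.

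The other phosphatases of MAP kinases did not shift together. Of 12 on the list, 7 had a mean of at least 1 CPM, and 0 of these passed the 2-fold rule in either direction. Their median log2 ratio was -0.08, with 4 ratios below 1 and 3 above. Dusp10, whose product favours JNK and p38, was 1.46-fold lower in 2KR (1.25 to 1.69), and Dusp16, which favours JNK, was 1.16-fold lower (1.06 to 1.26). Against these relatives, the ratio of Dusp1 per Dusp10 read was 1.03 (0.844 to 1.26) and that of Dusp2 per Dusp16 read 0.919 (0.828 to 1.02), 2KR over WT, and both intervals include 1. Dusp7, a cytoplasmic ERK phosphatase like Dusp6, had 58.2 CPM in 2KR and 61.7 CPM in WT, a ratio of 0.945 with an interval of 0.869 to 1.03 that includes 1. Set against Dusp7, Dusp6 had 1.17 reads per Dusp7 read in 2KR and 1.86 in WT, a ratio of 0.632 (0.567 to 0.705). Ptpn7, a tyrosine phosphatase of ERK and p38 in blood cells, was 1.11-fold lower (1.04 to 1.18). In the other direction Dusp18 was 1.41-fold higher in 2KR (1.29 to 1.54), and Dusp3, an atypical phosphatase of ERK and JNK, was 1.46-fold higher (1.23 to 1.73). Of the remaining relatives, Spred3 had 53.4 CPM in 2KR and 73.1 CPM in WT, 1.37-fold lower (1.26 to 1.48), and Spry3 had 0 counts in both.

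Other inhibitors of the RAS and ERK route showed no common direction: 10 of the 19 tested genes (of 21) had a ratio below 1 and 9 above, with a median log2 ratio of -0.03. The 1 gene at least 2-fold lower was Trib2, a pseudokinase that acts on MEK and on C/EBP proteins, with 57 counts in 2KR and 310 in WT, 6.41-fold lower (4.82 to 8.66), and 0 were at least 2-fold higher. Its relative Trib1 lay at the edge of the rule, 2.05-fold lower in CPM (1.80 to 2.35) with a log2 ratio of CPM + 1 of -0.995. Rasal2, a RAS GTPase activator, was 1.90-fold lower (1.54 to 2.36), and Sh2b3, the adaptor LNK that restrains cytokine receptors, was 1.79-fold lower (1.68 to 1.91). On the higher side, Rasal1 had 56 counts in 2KR and 22 in WT, 2.16-fold higher in CPM (1.30 to 3.71). Its log2 ratio of CPM + 1 was 0.719, under the rule. Dab2ip was 1.78-fold higher (1.26 to 2.55). The most abundant members of the list by mean CPM, Rasa2 and Dok2, were not lower beyond counting error. Dok2 had 223 CPM in 2KR and 228 CPM in WT, and Rasa2, another RAS GTPase activator, had 236 CPM in 2KR and 204 CPM in WT, 1.16-fold higher (1.11 to 1.21).

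Most genes of the cascade itself did not pass the 2-fold rule and they had no common direction. The 25 genes of the RAS and ERK core, adaptors, kinases and the ternary complex factors, all passed the filter. Their median log2 ratio was -0.06, with 15 ratios below 1 and 10 above. The counting interval lay wholly below 1 for 10 and wholly above 1 for 7. On each side 1 gene passed the 2-fold rule. The lower one was Gab1, a docking protein for SHP2, with 5 counts in 2KR and 132 in WT, 31.1-fold lower (13.0 to 97.4). The higher one was Rps6ka3, the gene of the ERK-activated kinase RSK2, with 254 CPM in 2KR and 105 CPM in WT, 2.43-fold higher (2.30 to 2.56). The guanine nucleotide exchange factor gene Sos2 was 1.40-fold lower (1.31 to 1.49), Rps6ka1 was 1.38-fold lower (1.27 to 1.49), and the adaptor gene Grb2 was 1.08-fold higher (1.04 to 1.12). The JNK and p38 kinases and their activators had a median of -0.14 over 11 of 12 genes, with 0 past the rule in either direction. Of the 11, 8 had a ratio below 1 and 3 above. The counting interval lay wholly below 1 for 7 and wholly above 1 for 1. In that list Mapk8 (JNK1) was 1.27-fold lower (1.16 to 1.40), Map2k3 1.22-fold lower (1.12 to 1.34), Mapk14 (p38 alpha) 1.17-fold lower (1.12 to 1.23), Mapk11 1.10-fold lower (1.05 to 1.15) and Mapk9 (JNK2) 1.29-fold higher (1.15 to 1.45).

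The receptors for the cytokines in the medium went both ways. Of the 6 genes 4 had a ratio below 1 and 2 above, with the counting interval wholly below 1 for 3 and wholly above 1 for 1, a median log2 ratio of -0.21 and 0 past the rule in either direction. Kit had 1158 CPM in 2KR and 1359 CPM in WT, 1.17-fold lower (1.15 to 1.19), Csf2rb, the shared beta chain, was 1.16-fold lower (1.14 to 1.18), and Csf2rb2, the IL-3 specific beta chain of the mouse, was 1.28-fold lower (1.25 to 1.32). Il6st, the signal chain of the IL-6 receptor, was 1.44-fold higher (1.34 to 1.54). Per Kit read, Spry1 had 0.0119 reads in 2KR and 0.0242 in WT, a ratio of 0.489 (0.422 to 0.565), and Spry2 had 0.00984 and 0.0149, a ratio of 0.661 (0.557 to 0.782). Spry4 had 0.00737 reads per Kit read in 2KR and 0.00707 in WT, a ratio of 1.04 (0.838 to 1.30) that includes 1. Counted against the SCF receptor transcript, Spry1 and Spry2 were thus lower in 2KR and a difference in Spry4 was not detectable.

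Most of the tested transcripts outside the family that are known to respond to ERK were lower in 2KR, with a list median below that of the members. Of 24 on the list, 22 were tested, 11 were at least 2-fold lower and 1, the cyclin gene Ccnd1 with 44 counts in 2KR and 6 in WT, was at least 2-fold higher. The list's median log2 ratio was -1.0045, against -0.41 for the 10 feedback genes. It was chosen with earlier results of these data known, so its direction is not independent evidence. The early response factors Fos and Egr1 were 5.14-fold (4.68 to 5.65) and 3.03-fold lower (2.97 to 3.09), Fosb was 13.9-fold lower (8.21 to 25.4), and Ier2 2.98-fold lower (2.87 to 3.10). Against Egr1, with 699 CPM in 2KR and 2120 CPM in WT, Dusp6 was thus relatively higher: there were 0.0978 Dusp6 reads per Egr1 read in 2KR and 0.0540 in WT, a ratio of 1.81 (1.68 to 1.94). For Dusp5 this ratio was 1.90 (1.71 to 2.11), with 0.0453 reads per Egr1 read in 2KR and 0.0239 in WT. Of the ETS factor genes, Etv4 had 562 counts or 27.3 CPM in 2KR and 691 counts or 39.5 CPM in WT, 1.45-fold lower (1.29 to 1.62). Etv5 had 815 counts or 39.6 CPM in 2KR and 650 counts or 37.2 CPM in WT. Its ratio of 1.06 had an interval of 0.959 to 1.18 that includes 1, so a difference in Etv5 was not detectable. Partner genes for these read ratios and genes named beyond the stated rule were picked after their values were seen.

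The EGR and NR4A factors, which overlap that list, had a median of -1.60 over 5 tested genes of 7, with 3 at least 2-fold lower and 0 higher. Egr3 was 13.5-fold lower (10.6 to 17.3), Nr4a1 7.13-fold (6.37 to 7.99) and Nr4a2 1.72-fold (1.41 to 2.09). The feedback genes of the parallel JAK and STAT route, the SOCS and PIM families, had a median of -0.21 over 11 genes, 9 with a ratio below 1 and 2 above. The 1 past the rule was Cish, an inhibitor induced by STAT5, 2.99-fold lower (2.81 to 3.19), and 0 were at least 2-fold higher. Pim3 was 1.96-fold lower (1.71 to 2.26), Socs6 1.73-fold lower (1.56 to 1.93), Socs1 1.61-fold lower (1.49 to 1.74) and Socs2 1.16-fold lower (1.10 to 1.22), while Pim2 was 1.09-fold higher (1.06 to 1.12).

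**Figure D3:**
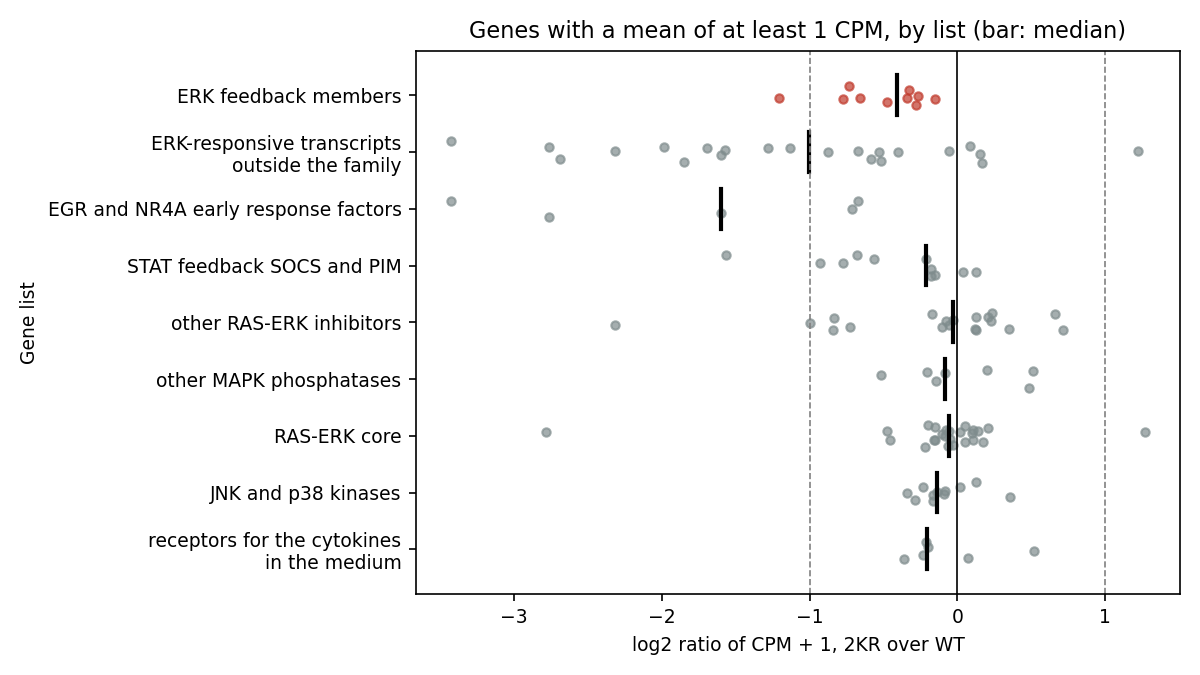
The log2 ratio of CPM + 1, 2KR over WT, is plotted for each gene past the filter in the 10 feedback members (red) and 8 other lists (grey), with a bar at each median and dashed lines at 2-fold. The members lie between -1.20 and -0.15 with a median of -0.41, the ERK-responsive transcripts outside the family have a median of -1.0045, and the lists of other phosphatases, the RAS and ERK core and the JNK and p38 kinases have medians of -0.08, -0.06 and -0.14. Some genes are on more than 1 list, and vertical scatter within a list has no meaning.

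Markers of other blood cell types moved alongside the members, and their part in these results was not tested. The 12 mast cell and basophil markers summed to 3893 CPM in 2KR and 7330 CPM in WT, with 7 of 9 tested at least 2-fold lower, 1 at least 2-fold higher and Fcer1a at 0 in both. The higher one was Mcpt8, with 450 CPM in 2KR and 190 CPM in WT. Cpa3 made up most of both sums, with 2525 CPM in 2KR and 5468 CPM in WT, and Gata2 is also on the progenitor list. The 10 monocyte and macrophage markers summed to 129 CPM in 2KR and 277 CPM in WT, with 3 of 8 tested at least 2-fold lower and 1 higher, and Csf1r at 12 and 10 counts. The 10 neutrophil markers summed to 526 CPM in 2KR and 232 CPM in WT, with 2 of 3 tested at least 2-fold higher and Camp at 0 in both. Most of both sums was Ctsg, with 487 CPM in 2KR and 212 CPM in WT, followed by Mpo with 36.0 and 16.2 CPM. Ngp, also tested, had 26 counts in each library, and the other neutrophil markers were under the filter. The 6 megakaryocyte markers summed to 1335 CPM in 2KR and 1031 CPM in WT. Of the 5 tested, 2 had a ratio below 1 and 3 above, and Pf4 was the 1 at least 2-fold higher. Pf4 had 406 CPM in 2KR and 121 CPM in WT. Itga2b, the most abundant of them, had 858 CPM in 2KR and 867 CPM in WT, and Vwf was 1.83-fold lower (1.10 to 3.09). The 6 stromal and endothelial markers summed to 681 CPM in 2KR and 559 CPM in WT, mostly Pecam1, which blood progenitors also express. The summed mast cell and monocyte markers were therefore lower in 2KR together with the feedback genes. Mcpt8 went the other way, and 4 tested monocyte markers had a ratio below 1 and 4 above. The summed neutrophil and megakaryocyte markers were higher, mainly through Ctsg, Mpo and Pf4, and not as whole lists.

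**Figure D4:**
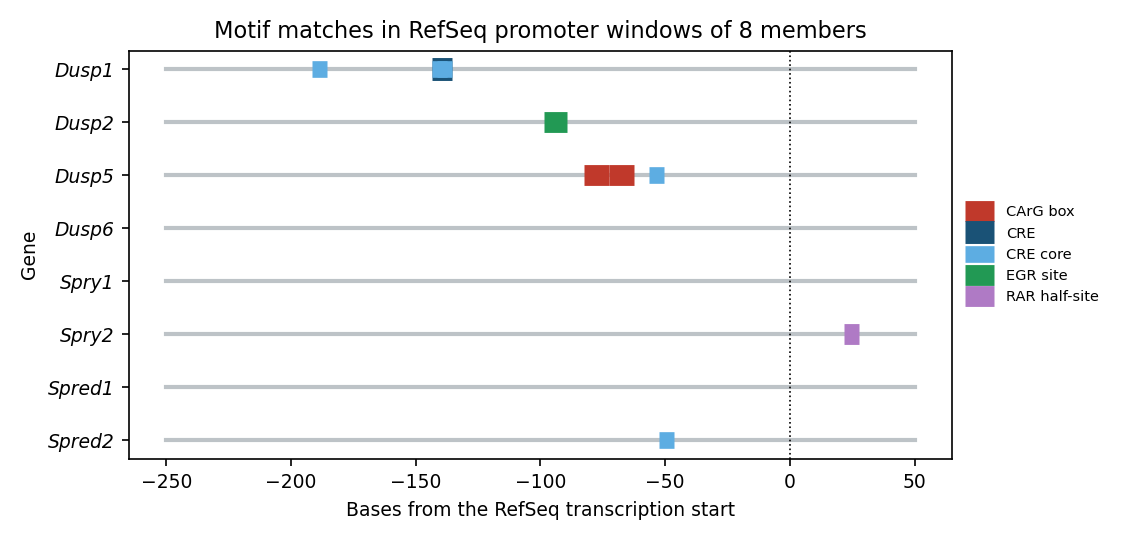
Matches to the motifs are drawn as coloured blocks against distance in bases from the RefSeq start (dotted line at 0) for the 8 members with a promoter in the table, Dusp1, Dusp2, Dusp5, Dusp6, Spry1, Spry2, Spred1 and Spred2. The CArG boxes lie in Dusp5 only, the cyclic AMP response element and its cores in Dusp1, with further cores in Dusp5 and Spred2, and Dusp6, Spry1 and Spred1 have no block. The table had no match for Dusp4 and Spry4.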

How the data were processed

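The authors deposited, per the file headers, raw read counts and FPKM values per gene model for each library. The submitters' processing notes name HISAT2 2.0.4 and GRCm38. The sources used here name no counting program, annotation release or strandedness. Counts were scaled with TMM in edgeR 4.0.16 (R 4.3.3; factors 1.0070 for 2KR and 0.9931 for WT) and analysed in Python 3.11.15 with scipy 1.17.1. Log2 ratios are of CPM + 1, models needed a mean of at least 1 CPM, and no test was run with 1 library per form. Folds are of CPM without the pseudocount, with 95% intervals by the exact Clopper-Pearson method, and read ratios have exact conditional intervals; both cover counting error only. Motifs searched on both strands were the CArG box, TGACGTCA, TGACGT, the AP-1 site TGANTCA, the ETS site CCGGAAGT, GCGGGGGCG and AGGTCA. From each list, up to 4 tested genes with the largest log2 ratio in size and the 2 with the highest mean were named, and all members were. With 2 libraries a gene has 1 ratio, so likeness of pattern was not ranked. The members and lists were chosen with earlier results of these data known. Some genes of the lists, and the erythroid markers, are not reported here.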

Additional observations from a re-analysis of the deposited data

How the results depend on the processing

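Across the 9 alternatives (pseudocounts of 0.1 and 5 CPM, no filter or one at a mean of 5 CPM, DESeq2 size factors, library totals, upper-quartile scaling, centring on the median, and deposited FPKM), all 10 members had a log2 ratio below 0, Spry1 was the 1 member past the rule on the lower side and 0 passed on the higher side. The median of the members ranged from -0.43 to -0.35. The log2 ratio of Spry1 was nearest to the threshold with a pseudocount of 5 CPM, at -1.02. Scaling moved the median of all tested models by at most 0.02. The number of gene models at least 2-fold lower in 2KR was 297 with a pseudocount of 5 CPM, 377 with a mean of at least 5 CPM and 282 on deposited FPKM, and the number higher was 147, 207 and 166, against 569 and 331. A larger pseudocount shrinks ratios of low genes, and the filter tests fewer. Depth limits Spry4 most, with 176 counts in 2KR and 168 in WT. No paired analysis was possible because each form had 1 library.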

Other observations

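Among 9216 tested genes with a promoter in the RefSeq table, 137 had a CArG box in a window of 300 bases. Their median log2 ratio of CPM + 1, 2KR over WT, was -0.07, against 0.02 for the 9079 without one, and 10 of them (7.30%) were at least 2-fold lower in 2KR, against 403 (4.44%) of the others. The 347 genes with the full cyclic AMP response element had a median of 0.06, and 4.61% of them were at least 2-fold lower. The 536 genes with an AP-1 site had a median of -0.01 and 5.60% at least 2-fold lower. The 869 genes with the ETS site were the most even, with 1.04% lower in 2KR and 0.460% higher by the 2-fold rule, against 4.84% and 2.61% of the 8347 without it. The 1336 genes with the retinoic acid receptor half-site had a median of 0.02 and 4.27% at least 2-fold lower. These shares describe the 2 libraries, and no difference between them was tested.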
